A study of Rattus norvegicus with 16 samples.

Results

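The effect of apolipoprotein A-I (ApoA-I) on transcripts of lipopolysaccharide-treated rat microglia was read from 8 of the 16 RNA-seq libraries of the series, 4 with LPS and ApoA-I and 4 with LPS alone. Libraries were chosen by their labels alone, and every gene of the table was considered. Of 30560 listed genes, 11902 passed the filter on low counts and were tested. Of the 18658 genes left out, 13278 had no count in any of the 16 libraries.

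All 4 groups were wild-type primary microglia at day 12 in vitro, with 4 libraries each. The LPS group received LPS at 100 ng/ml for 20 hours. The LPS with ApoA-I group received the same LPS with ApoA-I protein at 100 ug/ml in the culture medium. Control cells received neither agent, and the ApoA-I group received ApoA-I at that dose without LPS. The labels do not say when ApoA-I was added relative to LPS, whether it carried lipid, or whether the 4 libraries of a group came from separate cultures or animals. P-values therefore set the difference between groups against the spread of these libraries only, and that spread may be technical. RNA came from whole cultures, so a smaller number of cells of 1 type and less RNA per cell cannot be told apart.

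Microglia are the resident macrophages of the brain. They sense LPS, which Gram-negative bacteria carry in their outer membrane, through Toll-like receptor 4 and its co-receptors, and answer with broad induction of cytokine, chemokine and interferon-response genes and with repression of many genes of the resting state. ApoA-I is the main protein of high-density lipoprotein; it takes up cholesterol and phospholipid exported from macrophages by the transporter ABCA1. Genes are listed by Ensembl rat identifier without symbols, and no identifier could be matched to a name. Gene functions, the microglial label and other cell types could therefore not be looked at through marker genes. Programs are described here by how the genes behaved across the 4 groups.

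ApoA-I changed the level of a large share of the genes of LPS-treated cells, in both directions. At an adjusted p under 0.05 in the quasi-likelihood test of edgeR, 6114 of 11902 genes (51.4%) differed between LPS with ApoA-I and LPS. Of these, 3145 (26.4%) were higher with ApoA-I and 2969 (24.9%) were lower. Most changes were small. Of the genes that passed the test, 663 (5.57% of those tested) rose by more than 1 log2 unit, a 2-fold change, and 565 (4.75%) fell by more than that. Changes over 2 log2 units were found in 137 raised genes (1.15%) and 168 lowered genes (1.41%). Above 4 log2 units there were 17 raised and 16 lowered genes. The 4 libraries of one group did not overlap with the 4 of the other in 5702 genes (47.9%). The near balance of directions rests on the scaling. With trimmed-mean (TMM) scaling 51.4% of the genes that passed were raised, against 48.8% with the size factors of DESeq2, 71.8% when libraries were scaled by their total counts and 69.9% in the limma test on log2(TPM + 1). The median change of all tested genes was 0.03 with TMM scaling and 0.18 with library totals.

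The 8 libraries had 12739789 to 16386271 estimated counts each. Within the LPS group the Spearman correlation of levels between libraries, which is across genes, was 0.993 to 0.995. Within the LPS with ApoA-I group it was 0.9955 to 0.9962, and between the groups it was 0.968 to 0.973. One LPS library stood apart in 8 abundant genes that varied together: they took 2.08% of its counts, against 10.2% to 11.96% in the other 3 LPS libraries and 6.81% to 12.8% with LPS and ApoA-I. None of these 8 genes passed the test, and 5762 genes passed without that library.

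**Figure D1:**
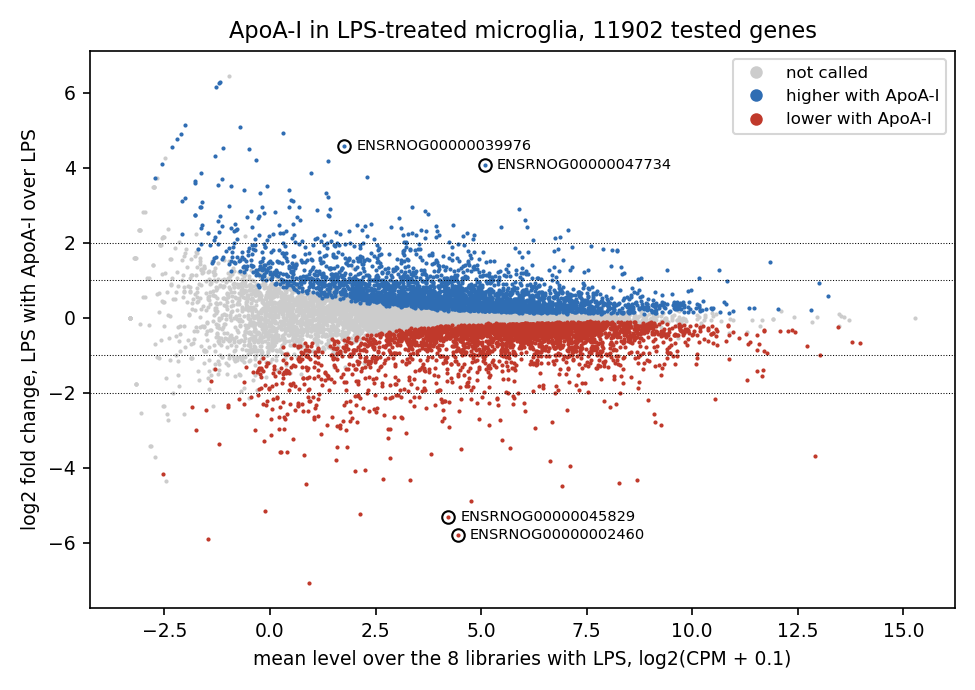
Log2 fold change of LPS with ApoA-I over LPS (vertical axis) against the mean level over the 8 libraries with LPS, as log2(CPM + 0.1) (horizontal axis), for the 11902 tested genes; blue points are genes higher and red points genes lower with ApoA-I at an adjusted p under 0.05, grey points did not pass, and circles mark the 4 genes named in the text. Dotted lines stand at 1 and 2 log2 units; large falls reach higher levels than large rises, and the 2 lowered genes lie at -5.81 and -5.32.

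The raised and lowered genes differed in level. Levels are given as CPM, counts scaled to a common library size by the TMM-adjusted totals, which are not corrected for gene length. Among the 1052 genes with a mean under 1 CPM over the 8 libraries, 14.8% were raised and 4.94% lowered. The filter shapes this class: it used all 16 libraries, and only 284 of the 1052 genes also passed it on the 8 libraries with LPS. With the filter and fit on those 8 alone, 17% of 289 genes under 1 CPM were raised and 8.65% lowered, and with no filter 2.86% of 6431 were raised and 2.41% lowered. Among the 3075 genes of 1 to 10 CPM, 27.7% were raised and 13.6% lowered, and among the 5786 genes of 10 to 100 CPM the shares were 28.9% and 26.7%. Above this level lowered genes were more frequent: 47.9% of the 1869 genes of 100 to 1000 CPM were lowered and 23.2% raised. Of the 120 genes of at least 1000 CPM, 49.2% were lowered and 24.2% raised. The order turned with the scaling in both middle classes. Of the genes of 10 to 100 CPM, 27.1% were raised and 28.7% lowered with DESeq2 size factors, 42.9% and 14.3% by library totals, and 39.5% and 13.9% in the limma test on TPM. In the class of 100 to 1000 CPM it turned with 28.4% lowered and 33.4% raised by library totals, and 28.8% and 31.9% in the limma test on TPM. In the class of at least 1000 CPM lowered genes stayed more frequent, with 38.3% against 32.5% by library totals and 40.8% against 31.7% in the limma test on TPM.

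Few genes carried much of the loss of counts. Together the 2969 lowered genes fell by 12.73 percentage points as a share of all counts. A single gene gave 1.106 points of this: its share was 1.209% ± 0.0939 (SD, n = 4) in LPS and 0.103% ± 0.0104 (SD, n = 4) with ApoA-I, a log2 change of -3.70. The 20 genes with the largest loss gave 4.763 points, or 37.4% of the total, and took 10.52% of counts in LPS and 5.753% with ApoA-I. Only 9 of these 20 changed by more than 1 log2 unit, so the others were abundant genes with smaller relative falls. The 3145 raised genes gained 9.285 points. Their top 20 gave 2.499 points, or 26.9% of the gain, rising from 3.796% to 6.296% of counts, and 4 of these 20 changed by more than 1 log2 unit. These shares add to the same total in every library, so a loss in some genes is matched by a gain in others.

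The strongly lowered genes were mostly genes that were low in cells without LPS. In the 168 genes lowered by more than 2 log2 units, the median level was 0.646 CPM in Control, 0.658 CPM with ApoA-I alone, 7.68 CPM in LPS and 1.23 CPM in LPS with ApoA-I. The LPS level varied widely among them, with quartiles of 2.62 and 36.5 CPM and a maximum of 14300 CPM. In all 8 libraries without LPS, 75 of the 168 (44.6%) were under 1 CPM, against 2.47% of all tested genes. This gap was in part a condition of entry, since a gene low without LPS could pass the filter mainly through libraries with LPS. On the 8 libraries without LPS alone, 81 of the 168 passed it, against 153 on the 8 with LPS. Of the 168, 20 genes reached 100 CPM in LPS, 7 did after LPS with ApoA-I and 2 in Control. The median change with ApoA-I was -2.48, with quartiles of -2.98 and -2.22. Their median change in LPS against Control was 3.64, with quartiles of 1.69 and 6.84. Both comparisons use the same 4 LPS libraries, so these values are set side by side and no relation between them was tested.

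Genes lowered by 1 to 2 log2 units held a higher level without LPS. The median of these 397 genes was 6.54 CPM in Control, 6.19 CPM with ApoA-I alone, 21.7 CPM in LPS and 8.11 CPM in LPS with ApoA-I. The 57 genes (14.4%) under 1 CPM in all libraries without LPS were a smaller share than among the more strongly lowered genes. The 2404 genes lowered by less than 1 log2 unit had a median change of -0.39. Their median levels were 50.4 CPM in Control, 72.0 CPM in LPS and 55.9 CPM in LPS with ApoA-I.

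The strongly raised genes showed the reverse order of levels. In the 137 genes raised by more than 2 log2 units, the median level was 8.51 CPM in Control, 9.22 CPM with ApoA-I alone, 0.322 CPM in LPS and 2.28 CPM in LPS with ApoA-I. In all 4 LPS libraries 85 of them (62%) were under 1 CPM, against 5.98% of all tested genes, and 9 had no count in any LPS library. Their large fold changes therefore rest on few counts in LPS, and the median standard error of their log2 change was 0.40, against 0.30 for the genes lowered by more than 2 log2 units. The median change with ApoA-I was 2.49, with quartiles of 2.23 and 3.11. The median change in LPS against Control, which shares the LPS libraries, was -4.45 with quartiles of -5.28 and -3.41. A high level without LPS was in part a condition of entry, since a gene low in both LPS groups could pass the filter only through Control or ApoA-I libraries, and 90 of the 137 passed it on the 8 libraries with LPS. When the filter and fit used those 8 alone, 90 genes were raised by more than 2 log2 units, with medians of 16.4 CPM in Control, 0.906 CPM in LPS and 4.92 CPM in LPS with ApoA-I. The same fit lowered 154 genes by that much, with medians of 0.583 CPM in Control, 10.1 CPM in LPS and 1.55 CPM in LPS with ApoA-I. None of the 137 genes reached 100 CPM in LPS, 7 did after LPS with ApoA-I, and 14 did in Control.

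Genes raised by 1 to 2 log2 units numbered 526. Their median level was 16.1 CPM in Control, 16.2 CPM with ApoA-I alone, 2.50 CPM in LPS and 6.51 CPM in LPS with ApoA-I. Under 1 CPM in all 4 LPS libraries were 101 of them (19.2%). The 2482 genes raised by less than 1 log2 unit had a median change of 0.44, with median levels of 31.4 CPM in Control, 22.4 CPM in LPS and 30.5 CPM in LPS with ApoA-I.

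**Figure D2:**
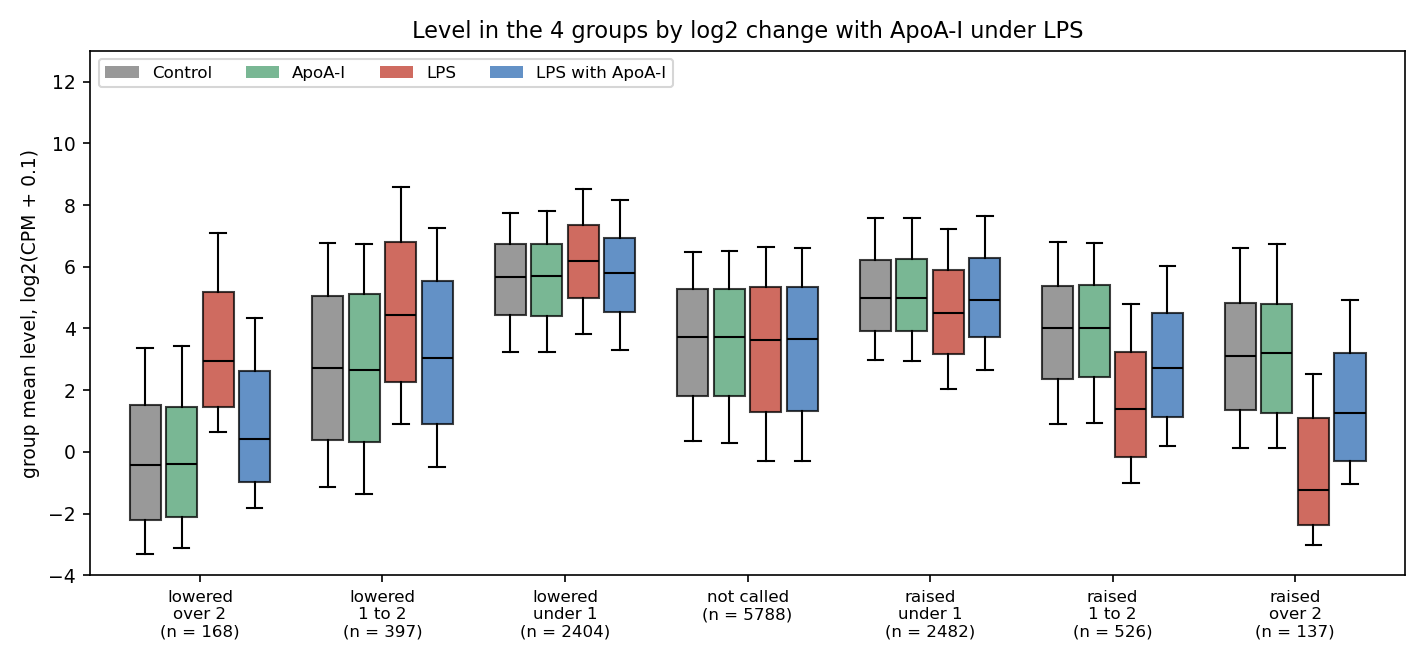
Group mean level per gene as log2(CPM + 0.1) (vertical axis) for genes grouped by their log2 change with ApoA-I under LPS (horizontal axis, with the number of genes), in Control (grey), ApoA-I (green), LPS (red) and LPS with ApoA-I (blue); boxes span the quartiles with the median as a line, and whiskers the 10th to 90th percentile. At the left the LPS median stands above the other 3 and at the right it stands below them. The LPS with ApoA-I median lies between LPS and the groups without LPS, while the boxes of LPS and LPS with ApoA-I overlap.

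The same classes were summed in each library. Genes lowered by more than 1 log2 unit took 7.477%, 7.657%, 7.457% and 8.333% of counts in the 4 LPS libraries and 2.723%, 2.815%, 2.602% and 2.658% in the 4 with ApoA-I. In Control the share was 1.896% ± 0.110 (SD, n = 4) and with ApoA-I alone 1.965% ± 0.111 (SD, n = 4). The 4 libraries with LPS and ApoA-I were alike and stood closer to Control than to LPS. Each gene was chosen for a fall of more than 1 log2 unit from LPS, so this closeness follows largely from the choice. Genes raised by more than 1 log2 unit took 0.8347%, 0.8255%, 0.8466% and 0.984% in the LPS libraries and 2.405%, 2.524%, 2.641% and 2.615% in LPS with ApoA-I. Their share was 5.025% ± 0.125 (SD, n = 4) in Control and 5.111% ± 0.233 (SD, n = 4) with ApoA-I alone. In these sums, where abundant genes weigh most, the raised genes stood further from their Control share than the lowered genes did. Both classes were chosen by their change from LPS, which shapes this distance, and the difference was not tested. Part of the raised class entered through the libraries without LPS, as 553 of the 663 passed the filter on the 8 libraries with LPS. Of the 565 lowered genes, 531 did. On the 8 libraries without LPS, 410 of the 565 lowered and 647 of the 663 raised genes passed it. Part of the lowered class thus entered through the libraries with LPS. The classes were made from these libraries, so the gap between LPS and LPS with ApoA-I in these sums is a description of its size and evenness, with no test.

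**Figure D3:**
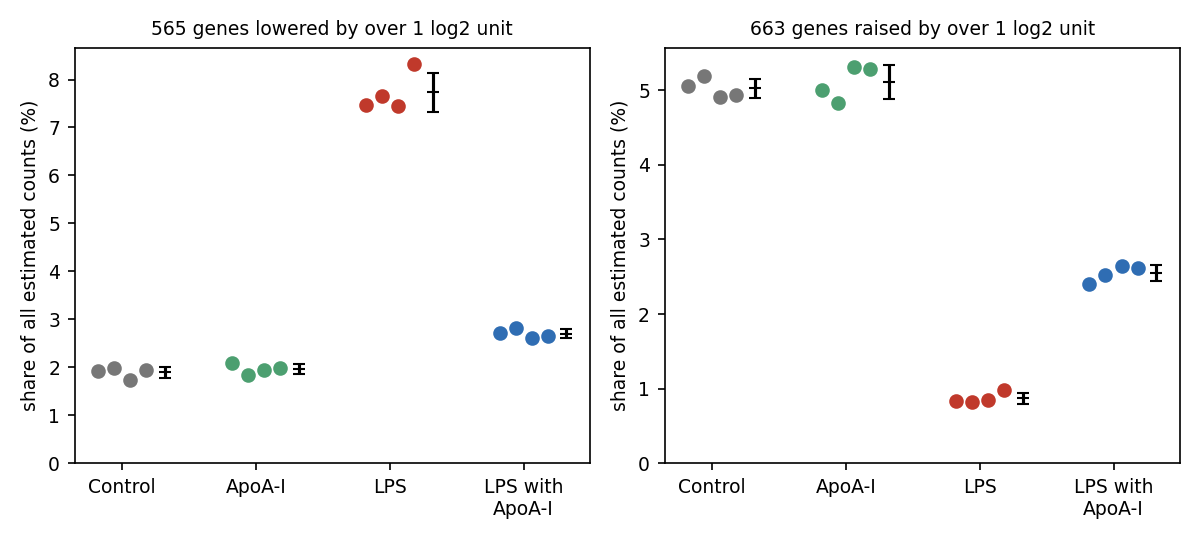
Share of all estimated counts (vertical axes, in percent, from 0) taken by the 565 genes lowered (left) and the 663 genes raised (right) by more than 1 log2 unit with ApoA-I under LPS; points are the 4 libraries of each group, and the bar beside them is the mean with its SD. Lowered genes fell from a mean of 7.731% to 2.7%, and raised genes rose from 0.8727% to 2.546% with ApoA-I.

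Some genes crossed a level of 1 CPM. With at least 1 CPM in all 4 LPS libraries and less in all 4 with ApoA-I, 70 genes were found, of which 64 passed the test. Their median level was 2.03 CPM in LPS, 0.498 CPM in LPS with ApoA-I and 0.236 CPM in Control, and 51 of the 70 were under 1 CPM in all 8 libraries without LPS. The opposite crossing was made by 55 genes, of which 52 passed. Their median level was 0.442 CPM in LPS, 1.81 CPM in LPS with ApoA-I, 5.04 CPM in Control and 4.78 CPM with ApoA-I alone, and 43 of the 55 were at 1 CPM or more in all 8 libraries without LPS. The highest LPS mean among the 70 was 11.9 CPM and the highest LPS with ApoA-I mean among the 55 was 6.35 CPM, so these were genes of low abundance, where the filter on all 16 libraries decides which genes are counted. Both sets were chosen by a gap between the 2 groups tested. That most of them passed, against 51.4% of all tested genes, follows largely from this choice.

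The 4 genes described singly were chosen among the 4783 genes that passed the test, had at least 5 CPM in the higher group and did not overlap between the groups. They were the 2 with the largest fall and the 2 with the largest rise among these; larger changes, to -7.06 and 6.29, were found in genes outside these conditions. The next genes just outside had log2 changes of -5.23 and 3.76.

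The largest fall among the 4783 was that of ENSRNOG00000002460. It was at 44.18, 38.50, 44.23 and 43.34 CPM in the LPS libraries and at 0.1655, 0.7761, 1.174 and 0.8287 CPM in those with LPS and ApoA-I. No count was found in any of the 8 libraries without LPS, and LPS was at least 922-fold above the 0.0462 CPM that 3 counts over the Control group would give. Every LPS library was thus far above every other library. The means were 42.6 ± 2.74 CPM and 0.736 ± 0.419 CPM (SD, n = 4), from 1995 and 42 counts, a 57.8-fold difference. The fitted log2 change was -5.81 with a standard error of 0.22 (adjusted p = 1.63e-12, edgeR quasi-likelihood test). Per gene length its level was 31.1 ± 2.52 TPM in LPS and 0.593 ± 0.344 TPM with ApoA-I (SD, n = 4).

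ENSRNOG00000045829 had a similar pattern. Its level was 34.29, 38.31, 40.17 and 32.11 CPM in LPS and 1.572, 1.035, 0.6602 and 0.4143 CPM in LPS with ApoA-I. Without LPS it was nearly absent, with 7 counts over the 4 Control libraries and 3 counts over the 4 ApoA-I libraries. All 4 libraries with LPS and ApoA-I were above every library without LPS, and none came near the LPS group. They held 19, 16, 9 and 6 counts, and Control replicate 3 held 4, a gap that counting error could make at its narrowest. The means of 36.2 ± 3.68 CPM and 0.920 ± 0.504 CPM (SD, n = 4) differed 39.4-fold, and the fitted log2 change was -5.32 with a standard error of 0.25 (adjusted p = 7.22e-14, edgeR quasi-likelihood test). In LPS its level per gene length, 8.07 ± 0.569 TPM (SD, n = 4), was lower than that of ENSRNOG00000002460, although their CPM were close.

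The largest rise among the 4783 was that of ENSRNOG00000039976. It was at 0.1884, 0.1897, 0.3692 and 0.2495 CPM in LPS, from 12 counts in all, and at 6.122, 5.95, 6.895 and 6.422 CPM in LPS with ApoA-I, from 353 counts. In Control it was at 39.77, 37.35, 40.99 and 34.38 CPM and with ApoA-I alone at 28.81, 35.77, 44.4 and 42.79 CPM. The LPS with ApoA-I libraries lay above all LPS libraries and below all 8 libraries without LPS, at a mean of 16.7% of Control, where LPS was at 0.654%. The log2 change with ApoA-I under LPS was 4.58 with a standard error of 0.29 (adjusted p = 1.78e-11, edgeR quasi-likelihood test). Because its TPM was low, 0.0775 ± 0.0236 in LPS and 2.17 ± 0.178 after LPS with ApoA-I (SD, n = 4), the change on the log2(TPM + 1) scale was 1.56.

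ENSRNOG00000047734 was the most abundant of the 4 without LPS, at a mean of 448.5 ± 48.8 CPM in Control and 374.2 ± 58.7 CPM with ApoA-I alone (SD, n = 4). It was at 2.92, 2.56, 5.391 and 3.743 CPM in LPS and at 58.25, 55.11, 77.76 and 64.43 CPM in LPS with ApoA-I. Again the LPS with ApoA-I libraries fell between the LPS libraries and those without LPS. The group means of 3.654 ± 1.26 CPM and 63.89 ± 10.03 CPM (SD, n = 4) differed 17.5-fold, and the log2 change was 4.09 with a standard error of 0.18 (adjusted p = 3.23e-14, edgeR quasi-likelihood test).

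**Figure D4:**
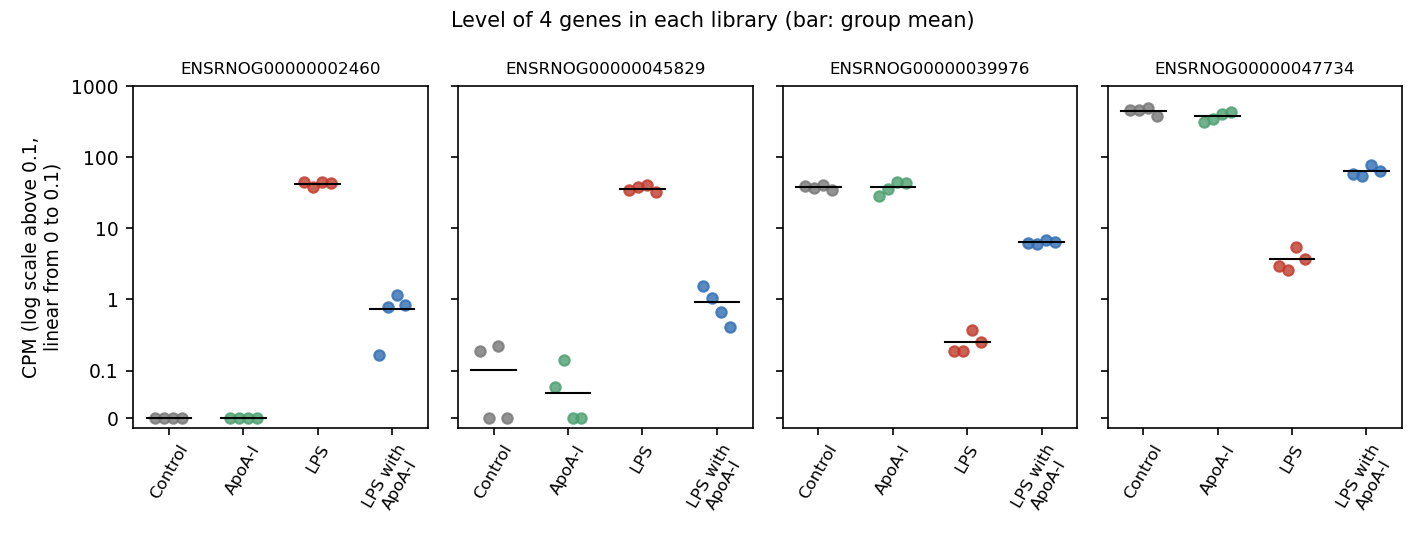
Level in CPM of the 4 genes with the largest changes among the 4783 with at least 5 CPM in the higher group and no overlap (vertical axis, logarithmic above 0.1 CPM and linear from 0 to 0.1) in each of the 4 libraries of the 4 groups; points are libraries and bars group means. The 2 lowered genes stood at 32.11 CPM or more in every LPS library and under 2 CPM in all others, and the 2 raised genes lay between LPS and the groups without LPS in every library with LPS and ApoA-I.

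Whether these changes differed from those ApoA-I gave without LPS was tested as an interaction in the same fit. At an adjusted p under 0.05 in edgeR, 4880 of 11902 genes (41%) had an ApoA-I effect that depended on LPS, 2472 with a higher change under LPS (20.8%) and 2408 with a lower one (20.2%). Genes with large changes under LPS were more often among them: 120 of the 168 lowered by more than 2 log2 units (71.4%) and 125 of the 137 raised by that much (91.2%) passed. The interaction holds the change by which these classes were made, so a higher share in them follows in part from the choice. Of the 5788 genes that did not pass under LPS, 409 (7.07%) passed the interaction.

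The log2 changes that form the classes compare libraries with LPS, although the filter, the scaling and the estimate of spread used all 16 libraries. In the libraries without LPS, ApoA-I changed 508 genes against Control (4.27%; edgeR, adjusted p under 0.05), 297 raised (2.5%) and 211 lowered (1.77%). The genes lowered by more than 2 log2 units under LPS had a median log2 change of 0.00 without LPS, with quartiles of -0.35 and 0.31, and 3 of the 168 rose and 7 fell. In 15 of the 168 there was no count without LPS, so their change is set at 0, and 75 were under 1 CPM in all 8 libraries; the median was 0.00 over the 153 with a count, with quartiles of -0.37 and 0.36. Over the 81 that passed the filter in a fit of the 8 libraries without LPS it was -0.05, with quartiles of -0.39 and 0.15. Genes raised by more than 2 log2 units under LPS had a median of -0.02 with quartiles of -0.17 and 0.18, and 5 of the 137 rose and 1 fell. Of all 565 genes lowered by more than 1 log2 unit under LPS, 24 rose and 23 fell without LPS (8.32%), and of the 663 raised genes 22 rose and 11 fell (4.98%). The count of 508 rests on few libraries: it was 284, 325, 202 and 775 without Control replicate 1, 2, 3 and 4, and 186 without ApoA-I replicate 1. It was 94 when only the 8 libraries without LPS were fitted. The class counts were not recomputed without these libraries.

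**Figure D5:**
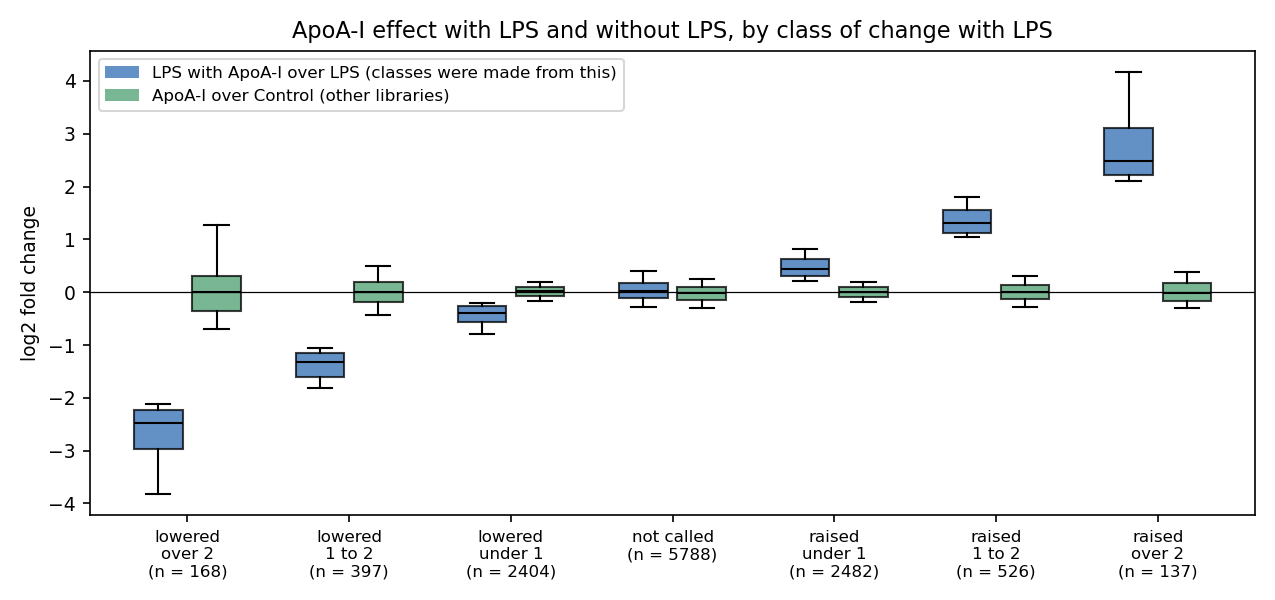
Log2 fold change with ApoA-I (vertical axis) for genes grouped by their change with ApoA-I under LPS (horizontal axis, with the number of genes); blue boxes give LPS with ApoA-I over LPS, from which the groups were made, and green boxes give ApoA-I over Control in the other 8 libraries. Boxes span the quartiles with the median as a line, and whiskers the 10th to 90th percentile; the medians without LPS lay at 0.00 for the most lowered genes, of which 15 had no count there and are drawn at 0, and at -0.02 for the most raised genes.

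For the named genes the interaction was tested where counts allowed. ENSRNOG00000039976 had an interaction of 4.59 with a standard error of 0.32 (adjusted p = 2.34e-10, edgeR quasi-likelihood test), and its change with ApoA-I alone was -0.01 (adjusted p = 0.981, edgeR). For ENSRNOG00000047734 the interaction was 4.35 with a standard error of 0.22 (adjusted p = 1.32e-12, edgeR), and the change with ApoA-I alone was -0.26 (adjusted p = 0.196, edgeR). ENSRNOG00000045829 had an interaction of -4.35 with a standard error of 1.66 (adjusted p = 0.0411, edgeR). This call rests on the 10 counts without LPS and was lost without Control replicate 2 (adjusted p = 0.0517), ApoA-I replicate 1 (0.110), ApoA-I replicate 2 (0.342) or LPS with ApoA-I replicate 3 (0.0519, edgeR). ENSRNOG00000002460 had no count without LPS, so its change there has no value, and edgeR could not test its interaction (adjusted p = 0.9999). DESeq2 gave an adjusted p of 0.000231 for it and limma on log2(TPM + 1) one of 2.63e-11. With no count in Control or ApoA-I, these p-values rest only on the fall of this gene under LPS. In limma the interaction and that fall had the same value, -4.36. Whether the effect of ApoA-I on this gene depended on LPS could therefore not be tested.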

How the data were processed

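Total RNA was purified on columns and sequenced by a service provider, per the labels' protocols. The deposited values are RSEM-type estimated counts and TPM for each gene and library. The tools named in the submitters' processing notes, with no roles given, are cutadapt 1.8.1, STAR 2.7.10b and RSEM 1.3.1; the notes also name the mouse build mm10, although the identifiers are Ensembl rat identifiers. The annotation and the strand setting are not given in the sources used here, so reads of overlapping genes or near-identical copies may be split in ways that could not be checked.

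Estimated counts (3.24% not whole, tolerance 0.005) were rounded. Genes passing edgeR's filterByExpr (minimum count 10) were fitted over all 16 libraries with a mean per group, scaling by TMM and a quasi-likelihood F test (edgeR 4.0.16, R 4.3.3; 12 residual degrees of freedom), with Benjamini-Hochberg adjustment over 11902 genes and a threshold of 0.05. Standard errors were taken as the size of the log2 change over the root of the F statistic. Totals were 12304915 to 17262380 over the 16 libraries, and folds against a group without counts use 3 counts over the group, which covers counting error only. Replicate pairs within the LPS groups were further apart than counting noise alone would put them (12 pairs, chi-square divided by its degrees of freedom 3.10 to 92.3). The largest values, 75.57 to 92.3, were pairs with LPS replicate 4. That library had the low share of the 8 abundant genes that varied together, whose part in these values was not tested. Pairs of the other LPS libraries gave 3.923 to 5.137, and pairs with LPS and ApoA-I 3.098 to 30.74. Each library was counted as 1 replicate, although such a spread does not show that libraries are independent. DESeq2 1.42.0, limma 3.58.1 on log2(TPM + 1), other scalings and filters, a replicate block and leaving out libraries were tried. The tests were tried on simulated data.

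Lists of genes for named programs and cell types could not be applied: the RefSeq table (GRCr8) holds an Ensembl identifier in 0 of 47357 entries, and 0 of 30560 identifiers matched. The rule for naming genes then gives the 2 largest rises and 2 largest falls among genes that pass the test, reach a mean of 5 CPM in either group and have groups that do not overlap. The comparison, its rules and lists were chosen with earlier results of these data known. Classes made from the 8 libraries with LPS alone were added after seeing the data. Classes by size of change, level and the 1 CPM limit describe the result and received no test of their own. The 8 genes that varied together have at least 1000 mean CPM and deviations from their group means whose correlation with the top gene exceeds 0.95.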

Additional observations from a re-analysis of the deposited data

Results flagged for a closer look

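By the interaction test of edgeR, the change with ApoA-I depended on LPS in 4880 genes. Among the named genes, the difference in log2 change was -4.35 for ENSRNOG00000045829, 4.59 for ENSRNOG00000039976 and 4.35 for ENSRNOG00000047734. The call for ENSRNOG00000045829 rests on few counts without LPS and was lost in 4 of 16 fits with 1 library left out.

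Single libraries far from the other 3 of their group were looked for in 28 sets of 4 values, and 3 were found. Chance gives about 1 in 20. ENSRNOG00000002460 was at 38.5 CPM in LPS replicate 2, against 43.34 to 44.23 CPM in the other LPS libraries. Genes raised by more than 1 log2 unit took 0.984% of counts in LPS replicate 4, against 0.8255% to 0.8466% in the others. This is also the LPS library with the low share of the 8 genes that vary together; the part of that in the result was not tested. Those 8 genes took 9.43% of counts in ApoA-I replicate 2, against 1.61% to 2.664% in the other libraries with ApoA-I alone.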

How the results depend on the processing

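The count of 6114 genes changed by ApoA-I under LPS lay between 5685 and 6340 under 17 alternatives, and between 5685 and 5812 when 1 of the 8 libraries was left out. The majority of calls turned from 51.4% raised to 48.8% with DESeq2 size factors and 48.9% in DESeq2, and the order of raised and lowered genes turned in the classes of 10 to 100 and 100 to 1000 CPM. The 4 named genes kept their direction and their call in LPS with ApoA-I against LPS in all 17. They were chosen for large changes without overlap in these libraries, so this follows largely from the choice. Lowered genes numbered 1772 with library totals (71.8% of calls raised, median change 0.179) and 1762 in limma on log2(TPM + 1) (69.9% raised). That limma test gave 379 raised and 284 lowered genes beyond 1 log2 unit, and 27 and 53 beyond 2, on a scale that understates low genes. Beyond 2 log2 units there were 272 lowered genes with no filter, 83 raised and 90 lowered with at least 5 CPM required in 4 libraries, and 90 raised when only the 8 libraries were fitted. A test against a change of 1 log2 unit, chosen after seeing the data, called 256 raised and 302 lowered genes. ApoA-I against Control gave 806 genes in DESeq2, 310 in limma on TPM, 94 with only the 8 libraries without LPS, 224 with the share of the 8 co-varying genes as a covariate, also chosen after seeing the data, and 186 to 775 with 1 library left out. Replicate numbers did not pair the libraries: same-numbered deviations correlated at -0.191 to 0.156 over 24 pairs, and 2 of 16 libraries correlated best with their own number. With the replicate block 6075 genes were called, 3127 raised and 2948 lowered, and 4808 in the interaction. Depth limits large changes of low genes: 85 of the 137 genes raised by over 2 log2 units were under 1 CPM in every LPS library, and the median of the 168 lowered ones was 1.23 CPM in LPS with ApoA-I.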

Other observations

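The 2 deposited tables together give an effective length per gene, the count divided by TPM, which moves when the isoforms counted for a gene change. It was computed for 9364 genes in the 8 libraries with LPS. With ApoA-I it passed an adjusted p of 0.05 (limma) in 1 gene, which was longer with ApoA-I by 0.16 on the log2 scale. At an unadjusted p under 0.05 there were 2134 genes (22.8%), more than the share of 0.05 that chance alone would give. What lies behind this excess was not tested. The median absolute shift was 0.0052 and the 95th percentile 0.064, and 2 genes shifted by more than 0.5, so shifts in this measure were small beside the changes in level.

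Genes lowered by less than 1 log2 unit had a median effective length of 1.20 relative to the median gene of each library, against 0.907 for those raised by less than 1 log2 unit and 0.986 for all tested genes. Classes of larger change did not show this gap: 1.011 for genes lowered and 1.004 for genes raised by 1 to 2 log2 units, and 0.934 and 1.02 beyond 2. This is a description with no test.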
